A study of Homo sapiens with 12 samples.

Results

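The comparison described here asks what the EZH2 inhibitor tazemetostat changed in cells whose AKT was already inhibited. It sets the 3 combination libraries against the 3 AKTi libraries, 6 of the 12 libraries of the series, and takes every gene that passed an expression filter, 16646 of the 58735 genes in the table. All libraries are polyA RNA-seq of C4.2B, a castration-resistant human prostate cancer line that descends from LNCaP. Both arms received the AKT inhibitor ipatasertib at 0.25 µM for 24 hours in medium with 10% charcoal-stripped FBS, which is depleted of steroid hormones. The combination cells had also been kept in 1 µM tazemetostat for 6 days beforehand and during the 24 hours. The remaining arms, used here only beside the members' values, had DMSO alone or tazemetostat alone (EZH2i) on the same schedule, so that combination against AKTi and EZH2i against DMSO are the same contrast with and without AKTi and share no library. The arms are replicate plates of a single line, so p-values measure the spread between plates.

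EZH2 is the catalytic subunit of polycomb repressive complex 2 (PRC2), which trimethylates lysine 27 of histone H3 (H3K27me3) and holds developmental and lineage genes silent, and in prostate cancer EZH2 is often overexpressed. Tazemetostat blocks its methyltransferase activity, and the mark is then lost over days as histones turn over. AKT is the kinase through which PI3K signalling drives growth and glucose use and keeps FOXO transcription factors out of the nucleus.

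Total counts ran from 14133755 to 14815838 in AKTi and from 15273647 to 18793827 in the combination. Libraries of the same arm differed by more than sampling noise, and no library stood apart from its arm on the first principal component, which held 65.1% of the variance. Genes encoded by mitochondrial DNA took 3.93% to 4.29% of the counts in AKTi and 5.14% to 5.64% in the combination, and 22252 to 22629 genes had a count in AKTi against 24768 to 25381 in the combination. The part of these differences in the results was not tested. The label of the line was checked against markers. All 10 luminal prostate markers passed the filter, while of 6 basal markers DST passed it, KRT5 had 0 counts in every library and TP63 had 1 at most.

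At an adjusted p-value under 0.05 in edgeR's quasi-likelihood test, 10673 genes differed between the combination and AKTi, 5341 of them higher (32.1% of the genes tested) and 5332 lower (32%). At least 2-fold, 2238 genes were higher (13.4%) and 1379 lower (8.28%). Fold changes are given as log2 of combination over AKTi with their standard error (SE), levels as CPM, the counts scaled to a common library total after TMM adjustment, and n is 3 libraries per arm throughout. They are relative to the other genes, not per cell, and in bulk RNA fewer cells of a kind and less RNA per cell cannot be told apart. The balance of directions depended on the scaling. With libraries scaled by their totals only, 6549 genes were higher and 4325 lower, 60.2% of the calls higher against 50% with TMM, and the median log2 fold change of all genes moved by 0.137, from 0.04 to 0.17. Without AKTi, tazemetostat changed 10687 genes. Of the genes called, 7989 changed in the same direction in both settings and 421 in opposite directions, and the difference between the settings itself passed the test in 4741 genes, 1802 with a positive interaction (10.8%) and 2939 with a negative one (17.7%). A positive interaction means a higher, or less negative, log2 effect of tazemetostat in the presence of AKTi. Interaction counts of gene lists below stand against these shares of 10.8% and 17.7%.

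**Figure D1:**
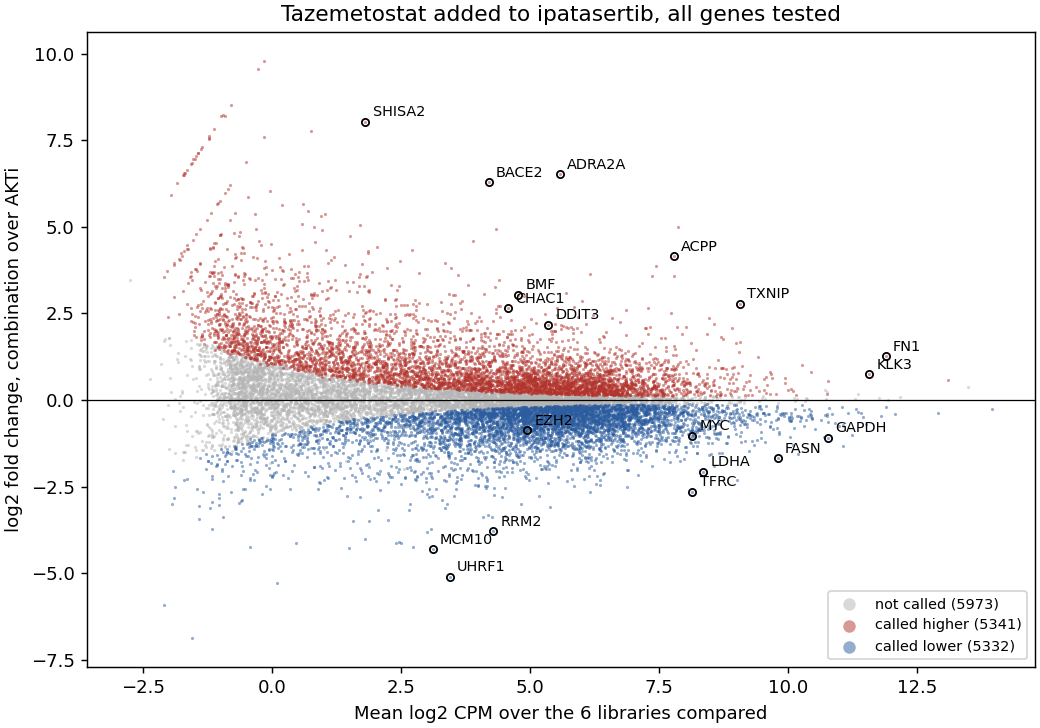
Log2 fold change of combination over AKTi (y axis) against mean log2 CPM over the 6 libraries (x axis), 1 point per gene for the 16646 genes tested, with genes called higher and lower in colour. Of these, 5341 were higher and 5332 lower, and the largest increases lie among genes of low level.

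Which genes moved depended on their level before treatment, as measured in the DMSO libraries, which the comparison does not use. Of the 1488 genes under 0.5 CPM in DMSO, 55.9% were higher in the combination than in AKTi and 0.336% were lower. Among the 1806 genes of the highest bin, 14.6% were higher and 72.4% lower, and the bins between followed this order for the lower calls. A gene that is nearly silent has no room to fall, and one that passed the filter only through libraries with tazemetostat had to be higher in them. This was so for 1827 of the 16646 genes, and of the 14819 that passed in the DMSO and AKTi libraries alone 30.0% were higher and 35.9% lower. The same limit holds within the gene lists below. Named list members near 0 CPM in AKTi may have passed only in this way, and that they are higher is then no independent result. Of 2363 long noncoding RNAs 770 were higher (32.6%) and 249 lower (10.5%), against 4369 (33.4%) and 4858 (37.1%) of 13083 protein-coding genes. The shares higher were thus alike, and the share lower was smaller among long noncoding RNAs. Gene length went with direction too, since of the longest quintile of genes by the deposited length 47.9% were higher and 26.4% lower, against 21.6% and 25.4% of the shortest quintile.

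**Figure D2:**
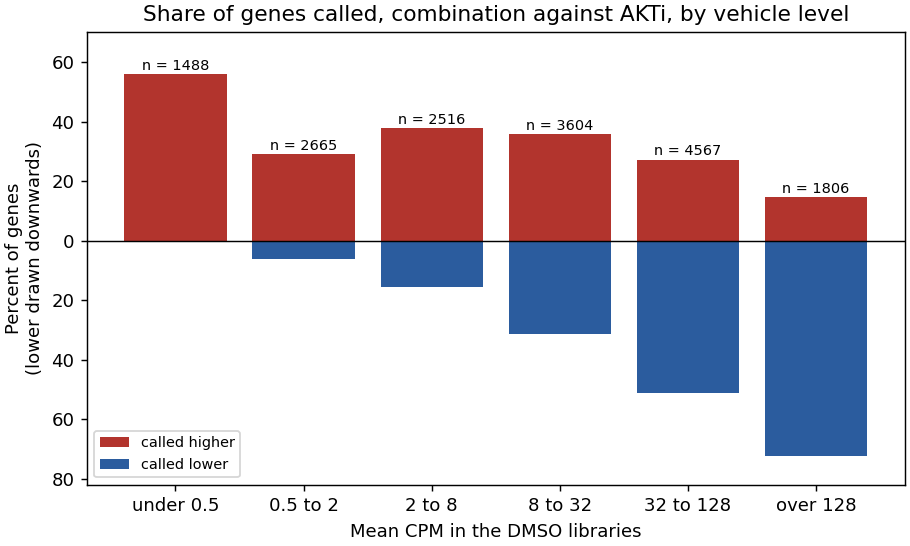
Percent of genes called higher and lower in the combination against AKTi (y axis) by bins of mean CPM in the DMSO libraries (x axis). The share called lower climbs from 0.336% in the lowest bin to 72.4% in the highest, and the share called higher is 55.9% in the lowest bin and 14.6% in the highest.

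The promoters of 9 genes whose values are given below are shown as examples of 4 motifs, whose shares over gene groups are also given below. UHRF1, CDCA7 and LDHA are not members of the list behind their motif's share. Each sequence is the 200 bases before the first listed RefSeq start site on the gene's own strand (GRCh38.p14), 5′ to 3′, with the motif in capitals in either orientation. UHRF1, CDCA7 and MCM6, genes of DNA methylation maintenance and replication, hold an E2F site (TTTCCCGC or TTTGGCGC), at chr19:4909301-4909500 on the plus strand, chr2:173354672-173354871 on the plus strand and chr2:135876444-135876643 on the minus strand. CDC20 at chr1:43358781-43358980 and PLK1 at chr16:23678689-23678888, both on the plus strand and both genes of mitosis, hold TTTGAA, the core of the cell cycle homology region (CHR). LDHA at chr11:18394363-18394562 on the plus strand and HSPD1 at chr2:197500275-197500474 on the minus strand hold the E-box CACGTG, the sequence that MYC and its partner MAX bind. BCAT1 at chr12:24949102-24949301 on the minus strand and MTHFD1L at chr6:150866286-150866485 on the plus strand, genes of amino acid and one-carbon metabolism, hold TGATGNAAT, the composite element of ATF4 and C/EBP factors.
UHRF1: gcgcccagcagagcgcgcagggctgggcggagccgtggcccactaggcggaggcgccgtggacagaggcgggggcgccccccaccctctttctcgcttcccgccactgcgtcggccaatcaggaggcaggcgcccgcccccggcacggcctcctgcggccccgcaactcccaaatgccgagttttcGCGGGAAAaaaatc
CDCA7: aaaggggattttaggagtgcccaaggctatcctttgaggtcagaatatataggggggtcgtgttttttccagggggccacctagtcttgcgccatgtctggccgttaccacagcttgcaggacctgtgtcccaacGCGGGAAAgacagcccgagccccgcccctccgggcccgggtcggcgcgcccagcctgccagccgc
MCM6: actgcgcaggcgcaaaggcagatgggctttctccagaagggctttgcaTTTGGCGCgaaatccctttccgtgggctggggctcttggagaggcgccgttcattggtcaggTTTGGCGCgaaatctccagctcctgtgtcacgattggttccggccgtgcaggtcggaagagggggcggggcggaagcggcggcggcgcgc
CDC20: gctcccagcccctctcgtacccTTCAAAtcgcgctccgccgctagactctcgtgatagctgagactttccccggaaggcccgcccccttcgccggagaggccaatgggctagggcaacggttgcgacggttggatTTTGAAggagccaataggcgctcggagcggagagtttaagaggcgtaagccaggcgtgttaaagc
PLK1: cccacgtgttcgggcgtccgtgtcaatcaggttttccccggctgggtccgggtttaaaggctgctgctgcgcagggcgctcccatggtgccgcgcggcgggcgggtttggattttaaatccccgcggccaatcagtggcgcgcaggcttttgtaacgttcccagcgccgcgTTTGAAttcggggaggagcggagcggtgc
LDHA: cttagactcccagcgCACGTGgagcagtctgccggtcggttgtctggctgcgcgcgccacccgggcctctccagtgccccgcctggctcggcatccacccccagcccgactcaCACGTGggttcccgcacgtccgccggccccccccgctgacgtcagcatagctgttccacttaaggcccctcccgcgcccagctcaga
HSPD1: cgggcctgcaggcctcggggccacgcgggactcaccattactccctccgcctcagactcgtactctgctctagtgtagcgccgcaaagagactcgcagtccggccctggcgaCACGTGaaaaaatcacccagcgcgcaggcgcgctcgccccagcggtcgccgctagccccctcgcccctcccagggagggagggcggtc
BCAT1: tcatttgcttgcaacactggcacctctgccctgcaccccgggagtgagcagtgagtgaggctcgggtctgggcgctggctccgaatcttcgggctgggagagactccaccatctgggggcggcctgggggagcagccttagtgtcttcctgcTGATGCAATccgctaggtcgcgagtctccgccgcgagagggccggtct
MTHFD1L: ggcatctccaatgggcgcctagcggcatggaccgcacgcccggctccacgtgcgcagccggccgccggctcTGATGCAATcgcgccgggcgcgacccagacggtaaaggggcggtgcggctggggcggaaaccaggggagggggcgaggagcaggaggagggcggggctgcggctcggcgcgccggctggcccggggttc

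The motif of UHRF1 begins 14 bases before the start, that of PLK1 29 bases and that of BCAT1 48 bases before it, and CDC20, LDHA and MCM6 hold 2 copies each. Shares of promoters with a motif are given beside the groups, over windows of 300 bases from 250 before to 50 after the start and searched on both strands, where 10622 of the 13083 protein-coding genes tested (81.2%) had a promoter in the table. A match is a run of letters, not an occupied site.

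The targets of the drugs were read first. EZH2 itself (chr7:148807383-148884321, minus strand), whose inhibition by tazemetostat acts on the enzyme and not on its RNA, was at 45.4, 37.1 and 42.1 CPM in AKTi and at 22.8, 23.1 and 22.5 CPM in the combination. The arms did not overlap, and the log2 fold change was -0.87 ± 0.08 (adjusted p = 1.08e-13). Of the 12 tested PRC2 subunits and cofactors 8 were lower and 3 higher, with a median log2 fold change of -0.36. These shares, 66.7% and 25%, stood beside 32% and 32.1% of all genes. SUZ12, a core subunit, fell from 92.7 to 103 CPM in AKTi to 63.3 to 77.8 CPM in the combination (-0.44 ± 0.07, adjusted p = 8.45e-08). EED, the subunit that reads H3K27me3, was at -0.28 ± 0.11 (adjusted p = 0.0253), a call that was lost under library-size scaling (adjusted p = 0.269) and without any of 3 single libraries (AKTi C, combination A or combination C), where the adjusted p ran from 0.0508 to 0.146. EPOP, an accessory subunit, gave the largest decrease of the list at -1.24 ± 0.11 (adjusted p = 1.91e-15), and JARID2, which recruits PRC2 to chromatin, the largest increase at 1.24 ± 0.07 (adjusted p = 3.92e-22). EZH1, the paralogue of EZH2, rose by 0.57 ± 0.10 (adjusted p = 1.46e-06).

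Of 20 tested subunits and readers of PRC1, the complex that binds H3K27me3, 11 were higher and 5 lower with a median of 0.25. BMI1, a ring-finger subunit of PRC1, rose from at most 60.3 CPM to at least 120 CPM (1.08 ± 0.06, adjusted p = 1.62e-22), and PHC1 rose by 1.83 ± 0.12 (adjusted p = 1.3e-19), while CBX2, a chromodomain reader of the mark, fell by 0.69 ± 0.08 (adjusted p = 1.86e-10). AKT1 fell by 0.64 ± 0.06 (adjusted p = 1.66e-14) and AKT2 by 0.38 ± 0.05 (adjusted p = 8.62e-09).

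The largest increases were in genes that AKTi cells barely transcribed. SHISA2 (chr13:26044597-26051031, minus strand), which encodes a membrane protein of the endoplasmic reticulum, had 0.289, 0.140 and 0.0695 CPM in AKTi and 48.4, 41.5 and 46.1 CPM in the combination. From 7 counts in AKTi to 2438 in the combination the ratio was 276-fold, with a 95% counting interval of 134 to 686. Without AKTi tazemetostat took SHISA2 from a mean of 0.104 to 2.50 CPM only, and the difference between the settings passed the test (adjusted p = 0.00311). CAMK1D, a calcium-dependent kinase, was likewise higher in the combination, at 9.18 to 12.9 CPM, than with tazemetostat alone, at a mean of 2.21 CPM, from 0.209 to 0.362 CPM in AKTi (log2 fold change 5.37 ± 0.34). SHISA2 and CAMK1D passed the filter only through libraries with tazemetostat, so that they are higher there is no independent result. The difference between the settings for CAMK1D was lost without DMSO library B (adjusted p = 0.231).

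ADRA2A (chr10:111077163-111080907, plus strand), the alpha-2A adrenergic receptor, went from 3.62, 3.78 and 7.93 CPM to 470, 496 and 445 CPM (6.52 ± 0.17, adjusted p = 1.42e-11). BACE2, an aspartyl protease, went from 2.31, 1.75 and 2.02 CPM to 163, 162 and 152 CPM (6.29 ± 0.11, adjusted p = 2.62e-46). In both the effect without AKTi was close in size, at 6.92 and 6.24, and no interaction was called. The other 6 of the 10 largest increases chosen by rule were OR51E1, a prostate-enriched olfactory receptor (5.07), SLC5A1, a sodium-coupled glucose transporter (4.93), DIO3, the deiodinase that inactivates thyroid hormone (4.74), TUBA1A, an alpha-tubulin (4.58), FOXD1, a forkhead factor (4.43), and LDLRAD4, an inhibitor of TGF-beta signalling (4.33). Of these, OR51E1 and DIO3 passed the filter only through libraries with tazemetostat, so that they are higher there is no independent result.

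Genes with 3 counts or fewer in every AKTi library were ranked by their level in the combination, and the 5 highest are given. NTS, the peptide neurotensin, had 3 counts in AKTi and 908 in the combination, 240-fold with a counting interval of 81.7 to 1160. CALB2, a calcium-binding protein, had 0 and 356 counts, at least 93.9-fold higher against a floor of 3 counts over the arm, and F3, which encodes tissue factor, had 0 and 303, at least 79.9-fold higher. GAB3, a signalling adaptor, rose 72.8-fold (24.7 to 355) and OPRK1, the kappa opioid receptor, 45.6-fold (23 to 106). These intervals cover counting error only. All 5 passed the filter only through libraries with tazemetostat and were chosen by their levels here, so that they are higher there is no independent result. Among called noncoding genes of at least 1 log2 CPM over the 6 libraries with arms that did not overlap, COLCA1, annotated as antisense, was the most changed, from 39.4, 42.2 and 43.1 CPM to 1320, 1284 and 1363 CPM (4.99 ± 0.06, adjusted p = 5.51e-53). That class overlaps a gene on the other strand, and since the strand setting of the counting is not given in the sources used here, reads of the pair cannot be told apart. AC025164.1 (4.23) and AC015712.2 (3.27) came next, and BX842568.2 (-2.34), AC125807.2 (-2.33) and FAM222A-AS1 (-2.31) were those that fell most at this level. AC025164.1 and AC015712.2 also passed the filter only through libraries with tazemetostat.

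**Figure D3:**
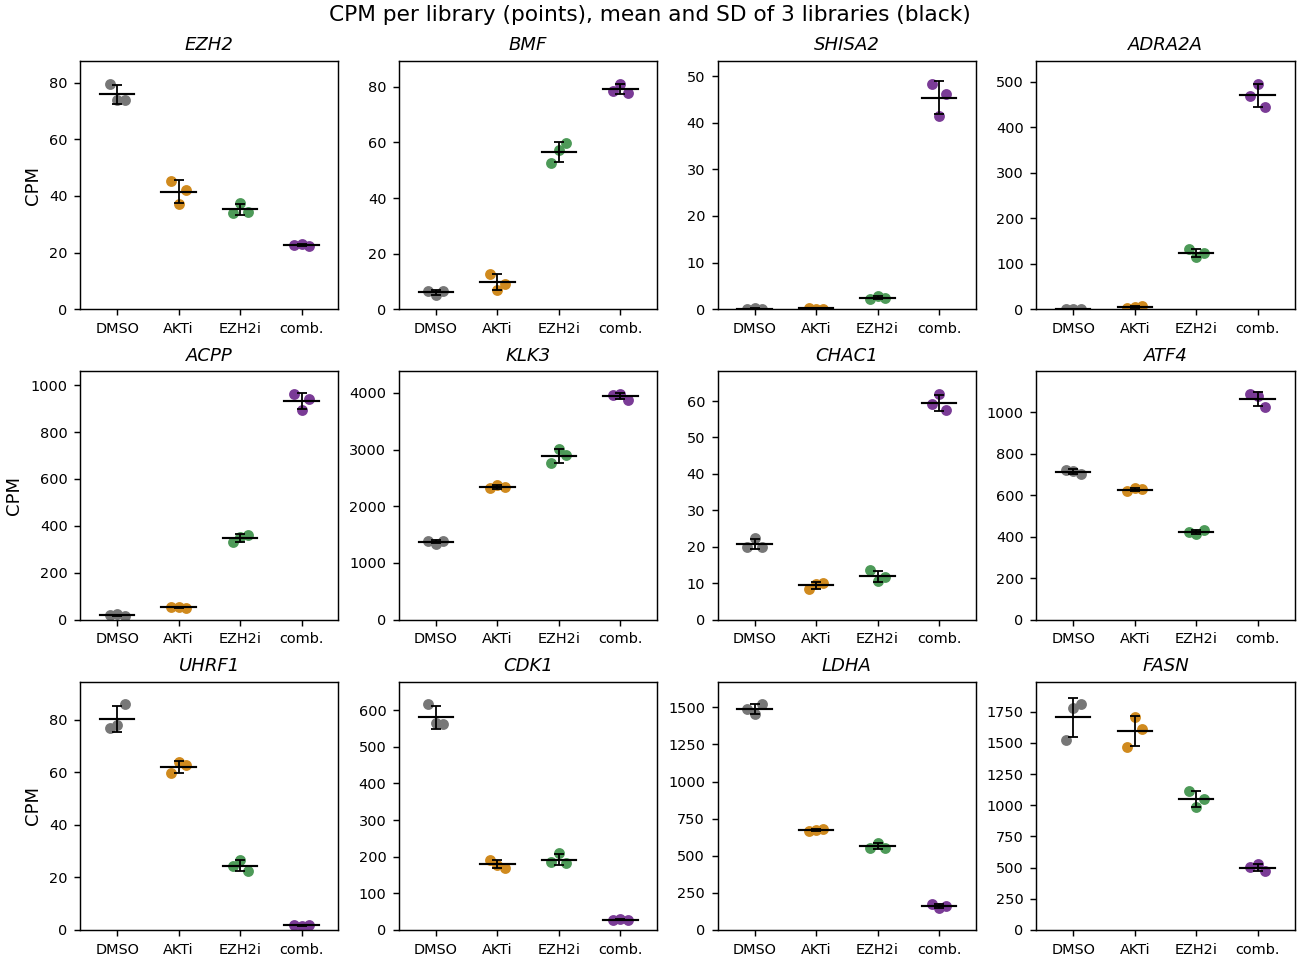
CPM (y, linear axes from 0 that differ between genes) of 12 genes in the DMSO, AKTi, EZH2i and combination libraries (x), 1 point per library, with bars for the mean and SD of each arm's 3 libraries. SHISA2, ADRA2A, ACPP and BMF are higher and UHRF1, CDK1, LDHA and FASN lower in every combination library than in any AKTi library, and CHAC1 and ATF4 lie lower with tazemetostat alone than in DMSO but higher in the combination than in AKTi.

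Genes reported to be silenced by EZH2 in cancer were followed as a list of 17 tested genes, of which 10 were higher and 3 lower (median 1.27). Of the 16 that passed the filter without tazemetostat libraries 9 were higher and 3 lower. They include CDKN1C, an inhibitor of cyclin-dependent kinases, at 2.64 to 3.04 CPM in AKTi and 12.9 to 15.9 CPM in the combination (2.36 ± 0.19, adjusted p = 7.09e-17), CDKN2B at 2.58 ± 0.27 (adjusted p = 1.9e-12) and WNT5A, a secreted ligand, at 2.45 ± 0.17 (adjusted p = 6.43e-19). The forkhead factor FOXC1 rose most, by 3.56 ± 0.25 (adjusted p = 1.31e-18), and PEBP1, the inhibitor of RAF kinase, fell by 0.80 ± 0.05 (adjusted p = 4.19e-21).

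Among 25 tested HOX genes, which set position along the body axis and are textbook PRC2 targets, 12 were higher and 4 lower (median 0.66; 11 and 4 of the 20 that passed without tazemetostat). HOXB9 rose from 11.7 to 13.6 CPM to 33.1 to 35.5 CPM (1.45 ± 0.11, adjusted p = 3.3e-18) and HOXC4 by 1.55 ± 0.17 (adjusted p = 4.39e-12). HOXB13, the HOX gene that marks prostate epithelium, went the other way, from 536, 571 and 588 CPM to 303, 290 and 289 CPM (-0.94 ± 0.05, adjusted p = 1.26e-22). Without AKTi it was at 0.10 (adjusted p = 0.0797), and the difference between the settings passed the test. Of 79 other developmental transcription factors 31 were higher and 11 lower (median 0.25; 24 and 11 of 65). Higher were 39.2% of the 79 and 36.9% of the 65, against 32.1% of all genes and 30.0% of those that passed without tazemetostat. Lower were 13.9% and 16.9%, against 32% and 35.9%, and the median of the 65 was 0.10. SOX9, a regulator of prostate progenitors, rose by 2.49 ± 0.09 (adjusted p = 6.63e-32) and the homeobox gene DLX1 fell by 2.24 ± 0.18 (adjusted p = 7.38e-17).

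Signalling and adhesion genes of development rose in larger shares in some lists but not in others. Of 54 axon guidance genes 36 were higher and 7 lower (median 0.67; 29 and 7 of the 47 that passed without tazemetostat), against 32.1% and 32% of all genes. The semaphorin SEMA6D went from 0.140 to 0.579 CPM to 7.55 to 10.3 CPM and the ephrin receptor EPHA5 from 0.139 to 1.01 CPM to 7.09 to 8.76 CPM. SEMA5A had 0 counts in AKTi and 77 in the combination, at least 20.3-fold higher. The 7 members that passed the filter only through libraries with tazemetostat were all higher, which is no independent result. EPHA2, an ephrin receptor of epithelia, fell by 1.31 ± 0.26 (adjusted p = 0.000415). The effects in this list were smaller with AKTi than without, where the median was 0.96. A called negative interaction was seen in 23 of the 54 members, against 17.7% of all genes.

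The TGF-beta and BMP genes had 30 of 38 members higher and 4 lower (median 0.71; 24 and 4 of 32). Among ligands TGFB2 (0.289 to 0.490 CPM against 2.30 to 4.15 CPM) and TGFB3 (0.0695 to 0.579 against 3.93 to 5.19 CPM) rose, and so did the receptor TGFBR2 (0.140 to 0.651 against 4.38 to 5.14 CPM). In AKTi these 3 lay near or under the 0.639 CPM of the filter. The 6 members that passed it only through libraries with tazemetostat were all higher, which is no independent result. GDF15, a stress-induced ligand of the family, rose from 83.5, 87.9 and 95.3 CPM to 521, 541 and 464 CPM (2.52 ± 0.07, adjusted p = 1.21e-33), well above its 0.75 without AKTi. The decoy receptor BAMBI rose by 2.45 ± 0.07 (adjusted p = 2.85e-36) and the inhibitor SMAD6 fell by 0.59 ± 0.10 (adjusted p = 6.1e-07). Of 33 WNT pathway genes 15 were higher and 9 lower, and of the 30 that passed without tazemetostat 12 and 9, close to the share among all genes. In that pathway LEF1, a transcription factor that carries the signal, rose by 2.36 ± 0.13 (adjusted p = 1.21e-22), RNF43, a negative feedback ligase, by 2.20 ± 0.13 (adjusted p = 1.62e-22), and the ligand WNT10B fell by 2.42 ± 0.18 (adjusted p = 4.92e-18).

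Of 46 collagens, laminins, integrins and other matrix genes 29 were higher and 4 lower (median 0.79; 22 and 4 of 35). THBS1, encoding the matrix glycoprotein thrombospondin 1, rose from 41.9, 47.2 and 47.4 CPM to 683, 679 and 650 CPM (3.88 ± 0.06, adjusted p = 3.82e-48), and the collagen COL12A1 from 0.834 to 1.45 CPM to 16.5 to 17.3 CPM. TNC, encoding tenascin C, had 7 counts in AKTi and 468 in the combination, a 52.9-fold ratio (25.5 to 132). FN1, encoding fibronectin, gained more CPM than any other protein-coding gene, from 2370, 2602 and 2411 CPM to 5975, 5856 and 5867 CPM (1.26 ± 0.05, adjusted p = 8.62e-29), while the laminin LAMC3 fell by 0.97 ± 0.11 (adjusted p = 1.64e-11). Of 22 cadherins and protocadherins 10 were higher and 4 lower, of which 7 and 4 among the 17 that passed without tazemetostat. The median of 0.20 over the 22 fell to -0.05 over those 17, of which 41.2% were higher and 23.5% lower. Among all genes that passed without tazemetostat, 30.0% were higher and 35.9% lower. FAT1, an atypical cadherin, rose by 1.64 ± 0.06 (adjusted p = 1.25e-30). Of 31 voltage-gated ion channels 15 were higher and 5 lower, of which 7 and 5 among the 20 that passed without tazemetostat, so this list's median of 1.26 fell to 0.24 over those 20. Of 5 keratins 3 were higher and none lower.

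**Figure D4:**
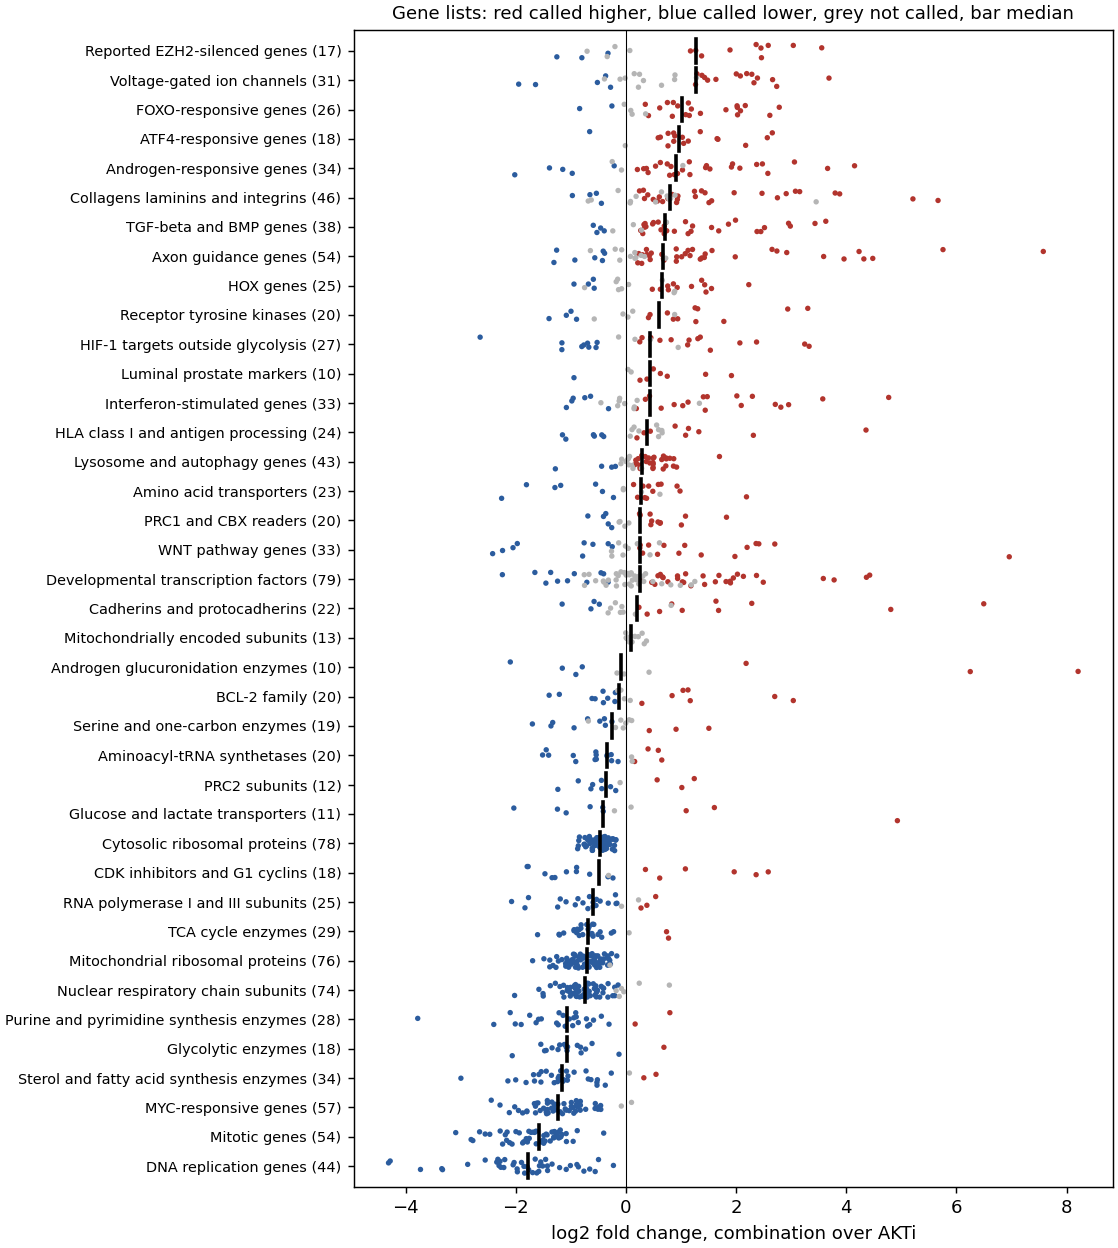
Log2 fold change of combination over AKTi (x axis) for the tested members of each gene list (y axis), 1 point per gene and a bar at the list's median. The ATF4-responsive, FOXO-responsive and androgen-responsive lists lie mostly above 0 with medians of 0.96, 1.01 and 0.91, and the DNA replication, mitotic, MYC-responsive and sterol lists lie mostly below 0 with medians of -1.78, -1.59, -1.24 and -1.16.

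The BCL-2 family, which controls release of cytochrome c from mitochondria, had 7 of 20 tested members higher and 9 lower (median -0.12, which was 0.02 under library-size scaling and 0.01 under upper-quartile scaling). These shares, 35% and 45%, stood beside 32.1% and 32% of all genes. Of the 19 that passed without tazemetostat 6 were higher and 9 lower. The 1 member that passed only through libraries with tazemetostat was higher, which is no independent result. BMF (chr15:40087890-40108892, minus strand), a BH3-only protein that senses stress and promotes apoptosis, rose from 12.8, 7.08 and 9.04 CPM to 78.5, 81.2 and 77.7 CPM, the largest increase of the family (3.04 ± 0.11, adjusted p = 6.57e-24). Every combination library lay above every AKTi library, and the effect without AKTi was 3.22 with no called interaction. Other BH3-only genes moved less. BCL2L11, encoding BIM, rose by 1.13 ± 0.08 (adjusted p = 7.85e-19), BBC3, encoding PUMA, by 1.04 ± 0.16 (adjusted p = 7e-08) and HRK from 0.280 to 0.940 CPM to 3.24 to 3.58 CPM. PMAIP1, encoding NOXA, fell by 0.42 ± 0.16 (adjusted p = 0.0181; 0.111 under library-size scaling and 0.135 without combination library B), against a fall by 2.14 without AKTi. BCL2, the anti-apoptotic founder of the family, was low and fell from 1.68 to 3.27 CPM to 0.906 to 1.21 CPM (-1.39 ± 0.33, adjusted p = 0.000202).

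Genes of the androgen and luminal programme were higher in the combination. Of 34 tested androgen-responsive genes 26 were higher and 5 lower (median 0.91; 24 and 5 of the 31 that passed without tazemetostat). ACPP, now ACP3 (chr3:132317367-132368298, plus strand), which encodes prostatic acid phosphatase, rose from 54.9, 52.0 and 50.8 CPM to 963, 896 and 943 CPM (4.15 ± 0.06, adjusted p = 4.29e-49). KLK3, which encodes PSA, rose from 2313, 2374 and 2340 CPM to 3961, 3980 and 3881 CPM (0.75 ± 0.05, adjusted p = 2.88e-20), and KLK2 by 1.45 ± 0.05 (adjusted p = 6.49e-31). The serine protease TMPRSS2 rose from 162, 190 and 179 CPM to 660, 676 and 669 CPM (1.92 ± 0.06, adjusted p = 6.42e-36), with an effect of 2.85 without AKTi. Its interaction was called negative, as were those of 18 of the 34 in all, against 17.7% of all genes. The exceptions among androgen-responsive genes included FKBP5, a cochaperone of steroid receptors, which fell from 127, 135 and 132 CPM to 49.7, 52.5 and 48.4 CPM (-1.39 ± 0.06, adjusted p = 4.95e-27), and CENPN, a centromere protein, which fell by 2.02 ± 0.07 (adjusted p = 2.84e-32).

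The pioneer factor FOXA1 was at 392 to 400 CPM in AKTi and 409 to 445 CPM in the combination (0.09, adjusted p = 0.0972). Of the 10 luminal markers 7 were higher and only HOXB13 lower. Among 10 tested androgen glucuronidation and conversion enzymes 3 were higher and 4 lower (median -0.10, which was 0.04 under library-size scaling and 0.03 under upper-quartile scaling), and of the 6 that passed without tazemetostat 0 and 4. UGT2B15, which inactivates androgens by glucuronidation, fell by 2.10 ± 0.19 (adjusted p = 8.38e-15) and UGT2B17 by 1.16 ± 0.22 (adjusted p = 5.06e-06). AKR1C3, which makes testosterone from androstenedione, went from 0 to 119 counts, at least 31.4-fold higher. The 3 that were higher, AKR1C3 among them, passed the filter only through libraries with tazemetostat, so that they are higher there is no independent result.

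FOXO-responsive genes, which AKT normally restrains, rose further when tazemetostat was added to AKTi, with 20 of 26 higher and 2 lower (median 1.01). Without AKTi their median was 1.19. A called positive interaction was seen in 6 of the 26 and a called negative one in 9, against 10.8% and 17.7% of all genes. SESN1, a stress-induced inhibitor of mTORC1, rose from 48.0, 48.8 and 44.4 CPM to 293, 279 and 291 CPM (2.61 ± 0.07, adjusted p = 3.45e-39), and PIK3IP1, an inhibitor of PI3K, by 2.17 ± 0.09 (adjusted p = 2.47e-29). TXNIP, which restrains glucose uptake, went from 206, 196 and 211 CPM to 1451, 1369 and 1406 CPM (2.78 ± 0.05, adjusted p = 1.67e-44). Its effect without AKTi was 1.93, and the interaction was called. SOD2, a mitochondrial superoxide dismutase, fell by 0.84 ± 0.10 (adjusted p = 9.32e-11). TBL1XR1, a subunit of the NCoR corepressor complex (1.02 ± 0.05, adjusted p = 4.27e-24), and PSAP, a lysosomal saposin precursor (0.80 ± 0.05, adjusted p = 5.13e-21), were with FN1, KLK3, TXNIP and ACPP the 6 that gained most CPM among the protein-coding genes called.

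MYC, the transcription factor that drives ribosome production and metabolism, was at 386, 410 and 417 CPM in AKTi and at 207, 195 and 192 CPM in the combination (-1.03 ± 0.05, adjusted p = 3.39e-24), and 55 of 57 tested MYC-responsive genes were lower and none higher (median -1.24). With tazemetostat alone MYC averaged 95.4 CPM against 247 CPM in DMSO, and its mean of 198 CPM in the combination lay above that of EZH2i. SRM, which makes spermidine, fell from 240, 235 and 238 CPM to 57.9, 63.5 and 54.4 CPM (-2.02 ± 0.06, adjusted p = 1.49e-35), HSPD1, the mitochondrial chaperonin, by 1.29 ± 0.05 (adjusted p = 8.85e-30) and NPM1, a nucleolar histone chaperone, by 0.51 ± 0.05 (adjusted p = 7.57e-13). Of the 47 promoters of MYC-responsive genes 42.6% held CACGTG, the E-box seen in LDHA and HSPD1 above, against 10.2% of all promoters of tested protein-coding genes and 14% of those of genes at least 2-fold lower. Over the bases before the start alone these shares were 25.5%, 8.98% and 10.3%. Genes at least 2-fold higher could not be described in this way, since only 77% had a promoter in the table.

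All 78 cytosolic ribosomal protein genes were lower (median -0.46), among them RPS2, from 3590, 3736 and 3710 CPM to 2413, 2381 and 2079 CPM (-0.68 ± 0.05, adjusted p = 2.05e-17), and RPS15A at -0.86 ± 0.08 (adjusted p = 1.03e-08). Of 25 subunits of RNA polymerases I and III, which make ribosomal and transfer RNA, 20 were lower and 3 higher (median -0.59), with POLR3K down by 2.08 ± 0.10 (adjusted p = 2.22e-26). Of 76 mitochondrial ribosomal proteins 75 were lower and none higher (median -0.71), with MRPS25 down by 1.69 ± 0.08 (adjusted p = 1.2e-25). Translation elongation factors and chaperones were among the genes that lost most CPM. EEF1A1 went from 16850 to 17560 CPM to 13640 to 14880 CPM (-0.27 ± 0.05, adjusted p = 3.24e-06) and EEF2 from 8297 to 9098 CPM to 6451 to 6983 CPM (-0.37 ± 0.05, adjusted p = 9.11e-09). HSPA8, a constitutive HSP70, fell by 1.31 ± 0.05 (adjusted p = 1.43e-30) and HSP90AB1 by 0.99 ± 0.05 (adjusted p = 1.73e-24). GAPDH and RPS2 completed the 6.

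Genes of energy metabolism were lower at several steps. Of 18 glycolytic enzymes 17 were lower and 1 higher (median -1.08), and the median effect without AKTi was -0.58, with a called negative interaction in 14. LDHA (chr11:18394388-18408425, plus strand), which reduces pyruvate to lactate, fell from 664, 673 and 682 CPM to 172, 146 and 164 CPM (-2.06 ± 0.06, adjusted p = 1.22e-37), against -1.40 without AKTi. GAPDH fell from 2511, 2551 and 2584 CPM to 1250, 1210 and 1150 CPM (-1.08 ± 0.05, adjusted p = 3.8e-27), against -0.47. The hexokinase HK2 fell by 1.45 ± 0.08 (adjusted p = 6.99e-24), GPI by 1.48 ± 0.05 (adjusted p = 2.1e-31) and ENO1 by 1.54 ± 0.05 (adjusted p = 3.03e-33), while ENO2, the neuronal enolase, rose by 0.69 ± 0.18 (adjusted p = 0.000548).

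Of 11 glucose and lactate transporters 6 were lower and 3 higher, 54.5% and 27.3% against 32% and 32.1% of all genes. SLC2A1, the main glucose transporter GLUT1, fell by 0.65 ± 0.07 (adjusted p = 1.62e-11) and SLC2A12 rose by 1.61 ± 0.10 (adjusted p = 3.51e-20). The lactate exporter SLC16A3 fell from 54.3, 58.6 and 61.5 CPM to 25.7, 25.4 and 22.6 CPM (-1.24 ± 0.08, adjusted p = 1.99e-20). The related SLC16A1 was at 0.09 (adjusted p = 0.114) in the combination against AKTi and at -1.05 without AKTi. HIF1A, the oxygen-regulated factor behind many glycolytic genes, rose by 0.33 ± 0.06 (adjusted p = 2.49e-06). HIF-1 targets outside glycolysis were mixed, with 14 of 27 higher and 9 lower (median 0.44). These shares, 51.9% and 33.3%, stood beside 32.1% and 32% of all genes. The members ran from RORA, a nuclear receptor, at 3.33 ± 0.20 (adjusted p = 3.31e-21) to the transferrin receptor TFRC, which fell from 728, 725 and 674 CPM to 118, 111 and 111 CPM (-2.65 ± 0.06, adjusted p = 9.31e-42).

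Of 29 TCA cycle enzymes 26 were lower and 2 higher (median -0.69). DLAT, a subunit of pyruvate dehydrogenase, fell by 1.60 ± 0.06 (adjusted p = 3.02e-31) and MDH2, malate dehydrogenase, by 1.21 ± 0.05 (adjusted p = 3.76e-28). PCK2, which makes phosphoenolpyruvate in mitochondria, was 1 of the 2 that rose, from 229, 240 and 239 CPM to 406, 397 and 375 CPM (0.74 ± 0.05, adjusted p = 1.52e-18), whereas without AKTi it fell by 1.33. Of 74 nuclear genes of the respiratory chain 68 were lower and none higher (median -0.75), with ATP5F1B, a catalytic subunit of ATP synthase, down from 2046, 2080 and 2098 CPM to 830, 804 and 771 CPM (-1.37 ± 0.05, adjusted p = 1.24e-31). None of the 13 genes of the mitochondrial genome passed the test in either direction (median 0.09). MT-CO1, a cytochrome c oxidase subunit, was at 9469 to 10840 CPM in AKTi and 11920 to 13650 CPM in the combination (0.37 ± 0.16, adjusted p = 0.0644). Under library-size scaling 3 of the 13 were called higher.

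Of 28 enzymes of purine and pyrimidine synthesis 26 were lower and 2 higher (median -1.07). TYMS, thymidylate synthase, fell from 24.1, 28.3 and 30.0 CPM to 6.69, 7.44 and 6.34 CPM (-2.01 ± 0.11, adjusted p = 7.18e-24), CTPS1 by 1.90 ± 0.07 (adjusted p = 3.59e-30) and the purine enzyme PAICS by 1.75 ± 0.06 (adjusted p = 3.25e-34).

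Of 34 tested genes of sterol and fatty acid synthesis 31 were lower and 2 higher (median -1.16), and 27 of the 34 had a called negative interaction, with a median effect of -0.53 without AKTi. FASN, fatty acid synthase, fell from 1471, 1706 and 1615 CPM to 503, 526 and 471 CPM (-1.68 ± 0.06, adjusted p = 7.69e-25), against -0.70 without AKTi, and INSIG1, a feedback inhibitor of sterol synthesis, by 1.81 ± 0.06 (adjusted p = 2.71e-32). The 2 exceptions were SC5D (0.55 ± 0.07, adjusted p = 2.12e-10) and TM7SF2 (0.33 ± 0.06, adjusted p = 1.34e-06), both late enzymes of cholesterol synthesis.

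The strongest decreases were in genes of S phase. UHRF1 (chr19:4903080-4962154, plus strand), which brings the maintenance DNA methyltransferase to replicated DNA, had 59.7, 64.1 and 62.7 CPM in AKTi and 1.88, 1.61 and 1.93 CPM in the combination (-5.10 ± 0.12, adjusted p = 1.43e-40). Without AKTi the fall was 1.72, and its interaction was called negative. MCM10, needed to start replication forks, went from 37.0, 39.0 and 36.5 CPM to 1.82, 1.96 and 1.87 CPM (-4.31 ± 0.13, adjusted p = 1.27e-35). With them, the 10 largest decreases among protein-coding genes of at least 1 log2 CPM were those of E2F2 (-4.28), DTL (-4.25), APLN (-4.12), CDCA7 (-4.12), CLSPN (-4.11), E2F8 (-4.02), ZNF367 (-3.80) and RRM2 (-3.78). They comprise E2F factors, replication and checkpoint genes and a ribonucleotide reductase subunit, apart from APLN, which encodes the secreted peptide apelin, and ZNF367, a zinc finger protein.

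All 44 DNA replication genes were lower (median -1.78), and their median without AKTi was -1.32. CDC45, of the replicative helicase, fell by 3.73 ± 0.13 (adjusted p = 1.22e-32), the loading factor CDC6 by 3.34 ± 0.09 (adjusted p = 1.31e-36), E2F1 by 3.33 ± 0.09 (adjusted p = 1.31e-36), and the helicase subunits MCM4, MCM5 and MCM6 by 2.44, 2.29 and 1.84. All 54 mitotic genes were lower too (median -1.59, against -0.91 without AKTi), and 49 of them had a called negative interaction. CDK1 (chr10:60778331-60794852, plus strand), the kinase that starts mitosis, fell from 191, 178 and 169 CPM to 27.6, 29.6 and 28.3 CPM (-2.66 ± 0.07, adjusted p = 3.09e-39), MYBL2 by 3.09 ± 0.07 (adjusted p = 5.95e-41), AURKB by 2.81 ± 0.14 (adjusted p = 4.83e-25), PLK1 by 1.88 ± 0.07 (adjusted p = 3.37e-30) and CDC20 by 1.45 ± 0.06 (adjusted p = 1.3e-28). BUB3 changed least, by -0.40 ± 0.06 (adjusted p = 1.81e-08).

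The promoters of these lists were described from their letters, and the group at least 2-fold lower was chosen by its fold changes. Of 38 promoters of DNA replication genes 21.1% held TTTCCCGC and 21.1% TTTGGCGC, against 2.56% and 1.1% of all tested protein-coding genes. Of 45 promoters of mitotic genes 64.4% held TTTGAA and 71.1% CCAAT, against 9.42% and 36.7%. Before the start alone the replication shares were 18.4% and 13.2%, against 2.18% and 0.885% of all. The mitotic shares there were 46.7% and 71.1%, against 8.22% and 35.1%. The motif GCCATNTTG, which the factor YY1 binds, was in 19.1% of promoters of mitochondrial ribosomal proteins and 16.4% of those of respiratory chain genes, against 5.17% of all and 4.66% of genes at least 2-fold lower. Over the bases before the start alone these shares were 2.94%, 1.64%, 1.76% and 1.38%. The CpG ratio, observed over expected, was 0.870 in genes at least 2-fold lower and 0.839 in all, and the median GC share was 65.3% in both. Matches of different motifs may overlap, and the motifs other than CACGTG and GCCATNTTG were chosen with the values known.

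Of 18 CDK inhibitors and G1 cyclins 6 were higher and 11 lower. These shares were 33.3% and 61.1%, against 32.1% and 32% of all genes, so the share higher was near that of all genes. CDKN1A, encoding p21, rose from 41.0, 44.8 and 49.6 CPM to 186, 179 and 164 CPM (1.97 ± 0.07, adjusted p = 1.32e-32), with an effect of 0.82 without AKTi, and CDKN1B, encoding p27, by 0.61 ± 0.06 (adjusted p = 4.8e-13). The G1 cyclin CCND3 fell by 1.08 ± 0.07 (adjusted p = 7.19e-20).

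Many genes of the integrated stress response, in which ATF4 raises amino acid uptake, synthesis and tRNA charging, responded to tazemetostat in opposite directions with and without AKTi. Of 18 ATF4-responsive genes 16 were higher and 1 lower (median 0.96), while without AKTi their median was -0.78. In 14 of the 18 the interaction was called positive, against 10.8% of all genes, and 10 passed the test in opposite directions. ATF4 itself went from 620, 633 and 628 CPM to 1089, 1079 and 1028 CPM (0.76 ± 0.05, adjusted p = 1.84e-20), and fell by 0.76 without AKTi.

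CHAC1 (chr15:40952962-40956519, plus strand), which degrades glutathione, went from 8.39, 9.81 and 10.1 CPM to 59.3, 61.9 and 57.6 CPM (2.66 ± 0.10, adjusted p = 6.28e-30), and fell by 0.80 without AKTi. DDIT3, encoding the factor CHOP, went from 19.0, 19.2 and 19.3 CPM to 87.7, 85.3 and 86.3 CPM (2.17 ± 0.09, adjusted p = 5.05e-29), and fell by 0.67 without AKTi. The pseudokinase TRIB3 went from 123, 133 and 129 CPM to 271, 263 and 251 CPM (1.02 ± 0.06, adjusted p = 5.88e-19), and fell by 2.01 without AKTi. In these 3 genes every combination library lay above every AKTi library. SESN2, a sensor of leucine, rose by 1.67 ± 0.07 (adjusted p = 4.37e-28), and ATF3, a stress factor, rose from 19.5, 19.3 and 19.7 CPM to 109, 112 and 102 CPM (2.46 ± 0.08, adjusted p = 4.38e-33), where tazemetostat alone gave 0.43. ATF5, a related factor, was the member that fell (-0.66 ± 0.08, adjusted p = 2.72e-10).

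Genes that supply amino acids showed the same reversal in part. Of 23 amino acid transporters 12 were higher and 7 lower, and 8 passed the test in opposite directions. The shares higher and lower, 52.2% and 30.4%, stood beside 32.1% and 32% of all genes. SLC7A11, the cystine importer, rose from 231, 217 and 198 CPM to 407, 388 and 433 CPM (0.93 ± 0.06, adjusted p = 1.05e-19) and fell by 1.59 without AKTi, and its partner SLC3A2 rose by 0.64 ± 0.05 (adjusted p = 1.44e-16). The arginine and lysine transporter SLC7A2 fell by 1.81 ± 0.09 (adjusted p = 5.84e-25). Of 20 aminoacyl-tRNA synthetases 4 were higher and 14 lower, and 12 had a called positive interaction, against 10.8% of all genes. AARS, now AARS1, the alanine enzyme, rose by 0.65 ± 0.05 (adjusted p = 6.66e-16) and fell by 0.64 without AKTi, while VARS, the valine enzyme, fell by 1.51 ± 0.05 (adjusted p = 1.86e-31).

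Of 19 serine and one-carbon enzymes 3 were higher and 9 lower, and 10 had a called positive interaction, against 10.8% of all genes. MTHFD2, the mitochondrial folate dehydrogenase, was at 226, 218 and 226 CPM in AKTi and 241, 224 and 233 CPM in the combination. The arms overlapped (0.06 ± 0.05, adjusted p = 0.333), while tazemetostat alone took it down by 2.12. BCAT1, the branched-chain aminotransferase, was at 52.8 to 59.1 and 53.7 to 54.4 CPM (-0.04, adjusted p = 0.687) and fell by 2.23 without AKTi. MTHFD1L fell by 0.39 ± 0.09 (adjusted p = 0.000207) against 1.65 without AKTi. The element TGATGNAAT of the BCAT1 and MTHFD1L promoters above was in 5.39% of the promoters of genes with a positive interaction of at least 2-fold (9 of 167 promoters) and in 0.452% of all. That group was picked by the interactions in these data. Of the 17 promoters of ATF4-responsive genes 1 held the element. No such letters were found in the windows of CHAC1, TRIB3, DDIT3 and ASNS.

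**Figure D5:**
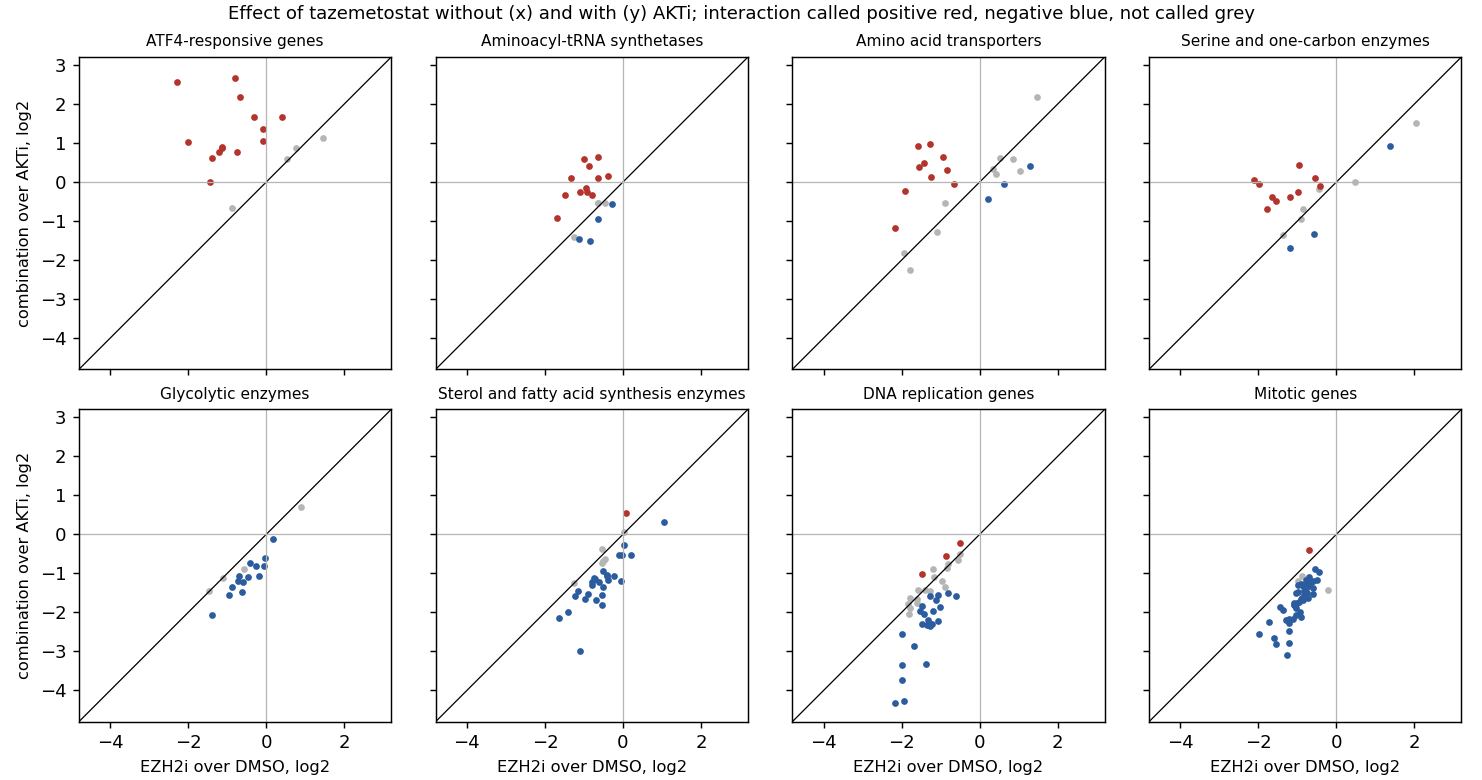
Log2 effect of tazemetostat without AKTi (EZH2i over DMSO, x axis) and with AKTi (combination over AKTi, y axis) for the members of 8 gene lists, 1 point per gene, with the line of equal effects. Most ATF4-responsive genes lie above the line with medians of -0.78 and 0.96, and most mitotic genes lie below it with medians of -0.91 and -1.59.

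Immune genes were called in both directions. Of 33 tested interferon-stimulated genes 18 were higher and 6 lower, and 13 and 6 of the 26 that passed without tazemetostat. IFI44 had 6 counts in AKTi and 94 in the combination, a 12.4-fold ratio (5.49 to 34.6), while OAS3, which senses double-stranded RNA, fell from 24.7 to 28.4 CPM to 11.9 to 15.5 CPM (-0.96 ± 0.10, adjusted p = 2.36e-12) and ISG15, a ubiquitin-like modifier, by 0.64 ± 0.10 (adjusted p = 1.06e-07). Of 24 HLA and antigen processing genes 9 were higher and 6 lower (7 and 6 of 22). These shares, 37.5% and 25%, and 31.8% and 27.3% of the 22, lay near the 32.1% and 32% of all genes and the 30.0% and 35.9% of those that passed without tazemetostat. Under library-size scaling 16 of the 24 were higher. HLA-B, which presents peptides, rose from 19.0, 20.2 and 21.5 CPM to 45.0, 43.8 and 39.9 CPM (1.08 ± 0.09, adjusted p = 2.39e-15), and CALR, a chaperone of peptide loading, fell by 0.57 ± 0.05 (adjusted p = 9.99e-16).

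Of 43 lysosome and autophagy genes 29 were higher and 4 lower (median 0.29). GABARAPL1, which coats autophagosomes, rose by 1.70 ± 0.08 (adjusted p = 3.53e-27), and GLA, the lysosomal alpha-galactosidase, fell by 1.28 ± 0.12 (adjusted p = 9.35e-14). Of 20 receptor tyrosine kinases 11 were higher and 4 lower (8 and 4 of 16). FGFR2, a receptor for fibroblast growth factors, rose from 1.09, 1.75 and 2.29 CPM to 16.8, 17.2 and 17.0 CPM (3.30 ± 0.21, adjusted p = 5.59e-21), with an effect of 1.32 without AKTi. MET, the receptor of hepatocyte growth factor, rose from 0.556 to 1.23 CPM to 1.87 to 2.64 CPM (1.30 ± 0.35, adjusted p = 0.00113), and EGFR was at 172 to 195 and 166 to 185 CPM (-0.05, adjusted p = 0.418).

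Most markers of other cell types were too low to test. Of 6 basal markers 1 passed the filter, of 12 neuroendocrine markers 4, of 7 fibroblast markers 3 and of 9 immune and endothelial markers 2. CHGB and NEUROD1, of neuroendocrine cells, and CD3E, of T cells, had 0 counts in every library, and CHGA had 5 counts over the AKTi libraries and 3 over the combination libraries. The basal marker that passed was DST, a linker of the cytoskeleton, which rose from 12.2, 9.88 and 11.1 CPM to 24.4, 24.7 and 31.0 CPM (1.27 ± 0.12, adjusted p = 1.83e-14). Of the 4 neuroendocrine markers tested 1 was higher and 1 lower. DLL3, a Notch ligand, fell from 15.2 to 16.5 CPM to 6.04 to 9.11 CPM, and ENO2, also given with the glycolytic enzymes, rose by 0.69. Of the 3 fibroblast markers tested 2 were higher and 1 lower, at -1.40. COL1A1, a collagen of fibroblasts, rose from 4.27 to 6.40 CPM to 9.73 to 14.8 CPM. VWF, an endothelial clotting factor, rose from 3.48 to 4.34 CPM to 4.77 to 7.38 CPM, a call lost without combination library B (adjusted p = 0.076). The part of these markers in the results was not tested.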

How the data were processed

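C4.2B cells were profiled by polyA RNA-seq in 4 arms of 3 libraries. The submitters' processing notes name STAR, HTSeq, DESeq2 and hg38, with versions, annotation and strand setting not given in the sources used here. The authors deposited raw counts per gene for 58735 genes, and their DESeq2-normalized values were not used. Counts were analysed with edgeR 4.0.16 in R 4.3.3. Genes were kept with filterByExpr (minimum count 10, minimum total 15, which came to 0.639 CPM in 3 libraries), libraries were scaled by TMM, and a robust quasi-likelihood model with 1 mean per arm was fitted over all 12 libraries. The contrasts were combination minus AKTi, EZH2i minus DMSO and their difference (interaction), with Benjamini-Hochberg adjustment over all 16646 genes at 0.05. Library totals ran from 14133755 to 22276417 counts, and genes of few counts are the least precise. A fold against an arm at 0 counts is a lower bound against 3 counts over the arm, and ratios of few counts have exact 95% intervals, both for counting error only.

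The comparison and the 44 gene lists, written from memory, were chosen with earlier results of these data known, so lists carry no p-value. Named were the drug targets and genes of the study, the 10 largest and 10 smallest log2 fold changes among called protein-coding genes of at least 1 log2 CPM with arms that did not overlap (3 and 3 of other classes), the 6 that gained and the 6 that lost most CPM, the 5 highest in the combination among genes with 3 counts or fewer in every AKTi library, the 4 largest and 4 smallest interactions among called genes of at least 1 log2 CPM over the 12 libraries, and for lists defining members and extremes (not every extreme is named). A few genes within this rule are not reported here. Promoters are the first listed start site of each gene in the RefSeq table (GRCh38.p14), matched by symbol. Alternatives were DESeq2 1.42.0, other scalings and filters, the 6 libraries of a contrast alone, a block for the replicate letter and leaving out single libraries. The fit was tested on simulated counts. Figures were drawn with matplotlib 3.10.9.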

Additional observations from a re-analysis of the deposited data

Results flagged for a closer look

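The effect of tazemetostat was compared with and without AKTi, as the difference between combination over AKTi and EZH2i over DMSO on the log2 scale (the interaction, n = 3 libraries per arm, edgeR quasi-likelihood test with Benjamini-Hochberg adjustment over all genes). The 34 genes named with an interaction passed this test, and each value is the effect with AKTi minus the effect without it. Among genes also called between the combination and AKTi with a mean of at least 1 log2 CPM over the 12 libraries, the 4 largest interactions were those of CHAC1 at 3.46 ± 0.15 (SE, adjusted p = 8.15e-27), TRIB3 at 3.03 ± 0.09 (adjusted p = 3.47e-29), DDIT3 at 2.84 ± 0.13 (adjusted p = 1.27e-25) and the antisense RNA VLDLR-AS1 at 2.62 ± 0.44 (adjusted p = 3.96e-06), whose log2 fold change was 1.74 with AKTi and -0.89 without. All 4 rose with AKTi and fell without it. The 4 smallest were those of UHRF1 at -3.38 ± 0.15 (adjusted p = 1.33e-25), lower in both settings, AHNAK2, a large scaffold protein, at -3.22 ± 0.55 (adjusted p = 5.4e-06), and the noncoding genes AC093001.1 at -2.77 ± 0.46 (adjusted p = 1.8e-05) and AC146944.3 at -2.63 ± 0.43 (adjusted p = 1.64e-06). AHNAK2 rose by 3.93 with AKTi and by 7.14 without, from means of 0.820 CPM in AKTi and 0.101 CPM in DMSO to 12.6 CPM in the combination and 15.4 CPM in EZH2i. It passed the filter only through libraries with tazemetostat. In DMSO it was at 0.0738 to 0.135 CPM, so its effect without AKTi and its interaction rest on few counts and depend on the prior count of the fit. AC093001.1 fell by 2.56 with AKTi and was at 0.21 without (adjusted p = 0.478), and AC146944.3 fell by 1.35 with AKTi and rose by 1.28 without.

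The other positive interactions among the named genes were those of the stress and amino acid genes SLC7A11 (2.52), BCAT1 (2.19), MTHFD2 (2.18), PCK2 (2.07), ATF3 (2.03), SESN2 (1.98), GDF15 (1.76) and ATF4 (1.53), of the signalling genes SHISA2 (3.51), CAMK1D (2.26) and FGFR2 (1.98), and of PMAIP1 (1.72), CDKN1A (1.15), SLC16A1 (1.14), TXNIP (0.86) and MYC (0.34). The negative ones were those of the cell cycle genes MCM10 (-2.13) and MYBL2 (-1.83), of FASN (-0.98), TFRC (-1.02), SLC16A3 (-1.08), LDHA (-0.66) and GAPDH (-0.61), of the prostate genes HOXB13 (-1.05) and TMPRSS2 (-0.94), and of COLCA1 (-1.55). COLCA1 and TMPRSS2 rose in both settings, by less with AKTi. SHISA2 was below the level set above and had 7 counts over the AKTi libraries, so its interaction depends on the prior count of the fit and is not a bound.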

How the results depend on the processing

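The count of genes called between the combination and AKTi, 10673, was 10463 with DESeq2, 10874 and 10835 with library-size and upper-quartile scaling, 10472 of 34381 genes with at least 1 count in total, 9374 of 13359 with at least 10 counts in every library, 10713 with the 6 libraries alone and 10035 to 10199 with each library left out. The interaction count, 4741, ran from 4164 to 4750 over these settings and from 4090 to 4731 with a library left out. Genes at least 2-fold higher numbered 1184 instead of 2238 when 10 counts were required in every library, a filter that removes silent genes by construction, and negative interactions of at least 2-fold 282 instead of 435. The replicate letters did not pair the samples, since same-letter AKTi and combination libraries correlated at -0.0337 to -0.0202 in their deviations from the arm means. With a replicate block 10620 genes and 4681 interactions were called. The share of E-box promoters among genes at least 2-fold lower was 14%, and 10.3% over the bases before the start. Under library-size and upper-quartile scaling the medians of the BCL-2 family (0.0174 and 0.00596) and of the androgen glucuronidation enzymes (0.0406 and 0.0293) were above 0 in place of -0.12 and -0.10, while the medians of the other 37 lists of at least 10 genes kept their sign in every setting. The cause was not tested. Of 2390 alternative values of 173 named genes, 2380 kept direction and call, and the other 10 were of EED (6), PMAIP1 (3) and VWF (1). Of 34 named interactions, that of CAMK1D alone lost its call, without DMSO library B (1.51, adjusted p = 0.231). Depth limits the genes with few AKTi counts, whose folds are bounds or wide intervals.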
